A study of Mus musculus with 6 samples.

Results

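Transcripts of 32 listed lysosomal genes were followed in M-MDSCs, the monocytic kind of myeloid-derived suppressor cell, an immature myeloid cell known for restraining T cells. The list holds acid hydrolases, their cofactors, proteins of the lysosomal membrane, a pair of proton pump subunits and the MiT/TFE transcription factors. Cathepsins were left out of it and are described separately. Members were found by the gene name in the scanner files, each represented by its brightest probe, and 30 of the 32 were found this way. Tfeb and Tfe3 carry the older names Tcfeb and Tcfe3 in the files, so they are described by name and left out of the counts over 30. All 32 genes were well above background on every array in both channels, and all passed the filter on dim probes that left 22097 of 31473 genes for testing.

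M-MDSCs were sorted by flow cytometry from the lungs or the bone marrow of C57BL/6 mice. Mice of the treated groups were given azacytidine, which inhibits DNA methyltransferases, together with entinostat, which inhibits class I histone deacetylases. Mock mice, 6 to 8 weeks old per the labels, were given the vehicle. The age of the treated mice is not given in the sources used here. Each of 6 dual-colour Agilent arrays held treated RNA in Cy5 and mock RNA of the same tissue in Cy3, with 3 arrays for lung and 3 for bone marrow. The RNA of a treated sample pooled 3 to 6 mice, that of a mock sample 1 to 2. The labels call the arrays of a tissue biological replicates.

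Treated RNA was in Cy5 throughout, and the effect of the dye on a ratio cannot be told apart from that of treatment. The lung arrays lay on one slide and the bone marrow arrays on another, so an effect of the slide cannot be told apart from that of the tissue. On each array 55.1% to 69.5% of spots were well above background in the treated channel and 49.9% to 62.8% in the mock channel. Log ratios of all genes correlated at 0.69 to 0.85 between lung arrays and at 0.59 to 0.72 between bone marrow arrays. Itgam, Ly6c1 and Csf1r, from a list of monocyte and M-MDSC markers, were well above background on every array in both channels. Ly6c2 and Ly6g were not found by name on the array, so these levels do not check the purity of the sort. Precision is limited by there being 3 arrays for each tissue. In bulk RNA, fewer cells of a type and less RNA per cell cannot be told apart.

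Lysosomes are acidic organelles in which hydrolases break down glycans, lipids, proteins and nucleic acids delivered by endocytosis, phagocytosis and autophagy. A proton pump, the V-ATPase, acidifies the lumen, and heavily glycosylated membrane proteins line the inner face of the membrane. TFEB, TFE3 and MITF are basic helix-loop-helix factors that bind E-box motifs in the promoters of many lysosomal genes and move to the nucleus when nutrient signalling at the lysosome falls. Macrophages are rich in lysosomes and are known for high levels of many of these transcripts.

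The letters that these factors are known to bind were looked for in RefSeq promoter windows (GRCm38.p6) running from 250 bases before to 50 bases after each gene's start. A window was found for 28 of the 32 members. The E-box CACGTG, which reads the same on both strands, stood in the windows of 8 of the 28 members (28.6%), against 8.09% of 27025 genes with a window. The longer form TCACGTGA, which contains the E-box, stood in 3 of 28 member windows, against 1.13% of genes. The full CLEAR element, a longer palindrome around the same letters, was found in no member window and in 0.37% of genes. A match describes letters in these windows and is not evidence of binding. The 30 bases around each match are shown because the lung results are later read with and without them, with the match in capitals:
Lamp1 (chr8:13159088-13159117, plus strand): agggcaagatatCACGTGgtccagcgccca
Mcoln1 (chr8:3500462-3500491, plus strand): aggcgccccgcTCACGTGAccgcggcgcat
Glb1 (chr9:114401018-114401047, plus strand): ctgcttctgagtCACGTGgcctacagaggc
Gaa (chr11:119267811-119267840, plus strand): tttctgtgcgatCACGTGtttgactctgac
Naglu (chr11:101070009-101070038, plus strand): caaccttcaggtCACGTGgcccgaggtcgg
Gla (chrX:134601215-134601244, minus strand): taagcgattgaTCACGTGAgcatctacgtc
Arsa (chr15:89477423-89477452, minus strand): tcaactcagtgtCACGTGttgtctgctcct
Atp6v0d1 (chr8:105566050-105566079, minus strand): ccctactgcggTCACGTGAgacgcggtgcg

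The probes of a pair of members carry letters that recur in the genome, which bears on what those probes measure. Of the 39 probes of the 32 members, 36 shared a run of 16 bases with the promoter windows of at most 1 other gene and 1 shared such a run with 2. The Gla probe (mm9, chrX:131122895-131122954) shared one with the windows of 55 other genes, and the Galns probe (mm9, chr8:125102144-125102203) with 27. The capitals mark the run of each probe that recurred most:
Gla, bases 1 to 30 of the probe: gaTCTGATGCCCTCTTCTggttctctagac
Galns, bases 25 to 54 of the probe: ggagtgcTGGGATTAAAGGCGTGcgccatc
The Gla run occurred 42 times and the Galns run 8 times among 32851 windows. Whether other transcripts add to the signals of these probes was not tested, and each count of members that includes them is read with that limit.

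In lung M-MDSCs, 14 of the 30 members were higher in treated than in mock cells and none was lower, where 20.0% of all genes tested were higher and 14.0% lower (34.0% in either direction). The 14 were Cd63, Mitf, Gaa, Naglu, Gla, Tpp1, Cd68, Grn, Gusb, Lamp1, Atp6v0d1, Hexa, Mcoln1 and Glb1. Calls were made with limma at an adjusted p under 0.05, Benjamini-Hochberg over all genes tested. A log2 ratio above 0 means higher in treated cells by the dyes in the labels. This reading opposes the column headings of the deposited matrices, which give mock over treated although the values there equal Cy5 over Cy3. The median member stood at a log2 ratio of 0.25, against 0.01 for all genes tested. All 3 lung arrays were above 0 for 20 of the 30 members and below 0 for 1, and the matching share over all genes is not given here. At an unadjusted p under 0.05 in limma, 16 of the 30 members were higher and 0 lower. Of all 22097 genes tested, 9752 had an unadjusted p under 0.05 in lung, in either direction.

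The lung calls rest on how each array was normalized. Loess, used here and equal in kind to the step behind the deposited matrices, removes any trend of the ratio with brightness within an array. With median centring, which leaves such a trend in place, no member passed in lung (lowest adjusted p in limma 0.0637), and 11 passed at an unadjusted p under 0.05. Of all 22097 genes tested, 891 were higher and 73 lower in that setting, and 4065 had an unadjusted p under 0.05. Under median centring all 30 lung ratios were above 0 and the median member stood at 0.48, against 0.12 for all genes. The members' median thus lay 0.36 above that of all genes with median centring and 0.24 above it with loess.

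**Figure D1:**
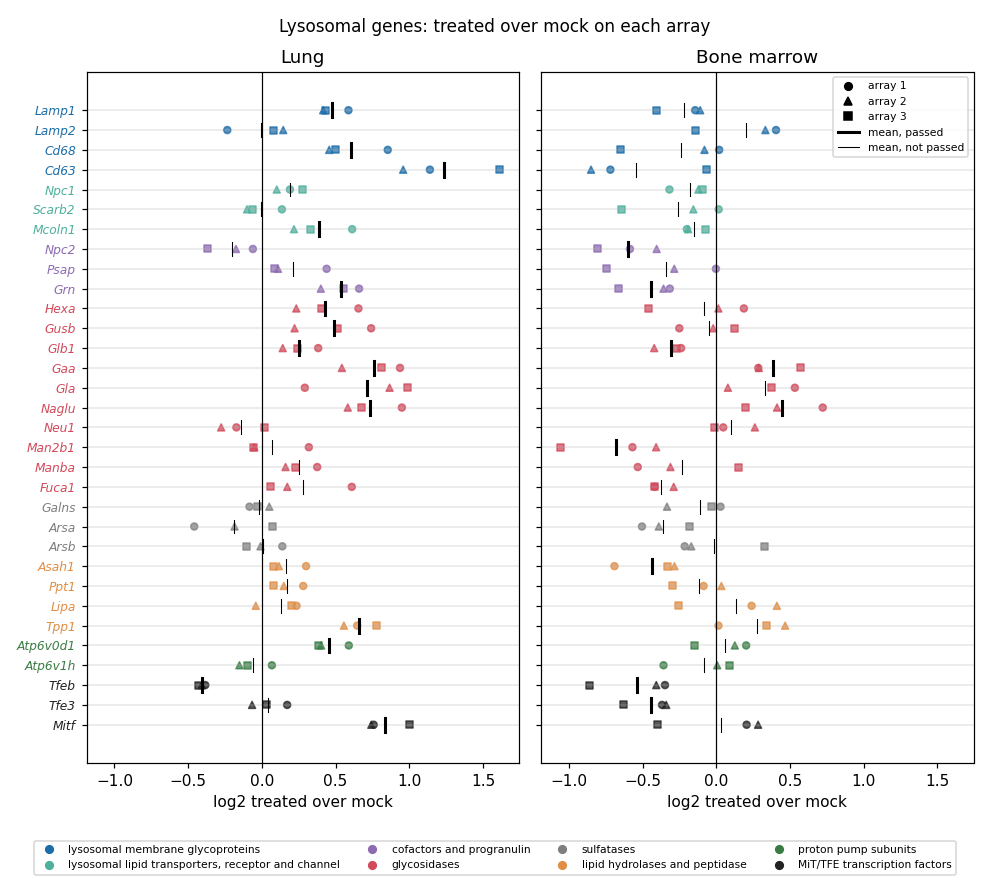
Log2 ratio of treated over mock (x axis) of each of the 32 genes (rows, coloured by role) on the 3 arrays of lung (left) and bone marrow (right), with a bar at the mean that is thick where the gene passed in limma. In lung 14 of the 30 members found by name passed above 0 and 1 had all arrays below 0, while in bone marrow 12 members had all arrays below 0 with loess.

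Among the membrane glycoproteins, 3 of 4 rose in lung. Cd63, a tetraspanin of late endosomes and lysosomes, had log2 ratios of 1.14, 0.96 and 1.61 on the 3 lung arrays (probe at mm9, chr10:128349813-128349872). Every lung array thus had Cd63 near or above a 2-fold ratio, and the mean was 1.24 ± 0.34 (SD, n = 3), a 2.36-fold ratio (adjusted p in limma 0.0015). Cd68, a scavenger-type glycoprotein used as a macrophage marker, had ratios of 0.85, 0.46 and 0.50 (mean 0.60 ± 0.22, adjusted p in limma 0.0122). The first array was the high one, and without it Cd68 did not pass (0.48, adjusted p in limma 0.0553). Lamp1, a main structural glycoprotein of the lysosomal membrane, had ratios of 0.59, 0.42 and 0.43 (mean 0.48 ± 0.09, adjusted p in limma 0.0030). Its close relative Lamp2, which also takes part in chaperone-mediated autophagy, stood at -0.23, 0.14 and 0.08, on both sides of 0. Lamp2 carries probes to 2 transcript variants, and the second gave a lung mean of -0.07 ± 0.25 (n = 3).

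Of the lipid transporter, receptor and channel group, 1 of 3 rose in lung. Mcoln1, a calcium-permeable channel of the lysosomal membrane, had ratios of 0.61, 0.22 and 0.33 (mean 0.39 ± 0.20, n = 3, adjusted p in limma 0.0101). With the scanner software's processed signals it did not pass (adjusted p in limma 0.0539). Npc1, which moves cholesterol out of the lysosome, was at 0.19 ± 0.09 and did not pass (adjusted p in limma 0.0724). Scarb2, which carries glucocerebrosidase to the lysosome, was at -0.01 ± 0.13.

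Among cofactors and progranulin, 1 of 3 rose. Grn, the secreted and lysosomal protein progranulin, had ratios of 0.66, 0.40 and 0.55, all above 0 (mean 0.54 ± 0.13, n = 3, a 1.45-fold ratio, adjusted p in limma 0.0030). Psap, the precursor of the saposins that present sphingolipids to their hydrolases, had ratios of 0.44, 0.11 and 0.09 and did not pass (adjusted p in limma 0.278). Npc2, the soluble cholesterol carrier that hands its load to Npc1, had lung ratios of -0.06, -0.18 and -0.37 and did not pass (adjusted p in limma 0.135). Among the 30 members found by name it was the only one with all 3 lung arrays below 0.

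Glycosidases made up the largest group of increases, with 6 of 10 higher in lung. Gaa, the acid alpha-glucosidase that degrades glycogen, had ratios of 0.94, 0.54 and 0.81 (mean 0.76 ± 0.20, n = 3, adjusted p in limma 0.00100). Naglu, an enzyme of heparan sulfate breakdown, had ratios of 0.95, 0.58 and 0.68 (mean 0.74 ± 0.19, adjusted p in limma 0.0023). Both genes were well separated from 0 on every lung array. The Naglu call was lost when ratios were scaled between arrays (adjusted p in limma 0.063).

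Gaa has a second probe, toward the 5′ side of the gene, and the ratios of the probes differed in size. The upstream Gaa probe (mm9, chr11:119136014-119136073) had a lung mean of 0.30 ± 0.14 and an adjusted p of 0.0557 in limma. The downstream Gaa probe used here (mm9, chr11:119146697-119146756) was the brighter one.

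Gla, alpha-galactosidase A, had ratios of 0.29, 0.87 and 0.99 in lung (mean 0.71 ± 0.37, n = 3, adjusted p in limma 0.0070), from the probe with repeated letters shown above. With ratios scaled between arrays Gla did not pass (adjusted p in limma 0.0519). Without Gla and Galns, 13 of 28 members were higher in lung. Gusb, beta-glucuronidase, had ratios of 0.74, 0.22 and 0.51 (mean 0.49 ± 0.26, adjusted p in limma 0.0116). For both enzymes all lung arrays were above 0, with a wide spread between arrays.

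Hexa, the alpha subunit of beta-hexosaminidase, had ratios of 0.65, 0.23 and 0.40 (mean 0.43 ± 0.21, n = 3, adjusted p in limma 0.0367). Glb1, lysosomal beta-galactosidase, had ratios of 0.38, 0.14 and 0.24 (mean 0.25 ± 0.12, n = 3, adjusted p in limma 0.0274). These were the weakest of the increases by adjusted p. Hexa did not pass without any 1 of the lung arrays (0.32, 0.53 and 0.44, adjusted p in limma 0.154, 0.0547 and 0.0957) or without the second bone marrow array (adjusted p in limma 0.0623). Glb1 did not pass without the first (0.19, adjusted p in limma 0.117) or the third lung array (0.26, adjusted p in limma 0.092). Neu1 (a sialidase, -0.14 ± 0.15), Man2b1 (an alpha-mannosidase, 0.07 ± 0.21), Manba (beta-mannosidase, 0.26 ± 0.11) and Fuca1 (an alpha-fucosidase, 0.28 ± 0.29) did not pass.

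No sulfatase passed in lung with limma, where the 3 members had means between -0.19 and 0.01. Arsa, which degrades sulfatides, had ratios of -0.46, -0.19 and 0.07. Arsb and Galns, enzymes of glycosaminoglycan breakdown, were at 0.01 ± 0.12 and -0.02 ± 0.07. For each of the 3 the lung arrays lay on both sides of 0.

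Of the lipid hydrolases and the peptidase, 1 of 4 rose. Tpp1, tripeptidyl peptidase 1, had ratios of 0.65, 0.56 and 0.78 in lung (mean 0.66 ± 0.11, n = 3, a 1.58-fold ratio, adjusted p in limma 0.0018). Asah1 (acid ceramidase, 0.17 ± 0.12), Ppt1 (palmitoyl-protein thioesterase, 0.17 ± 0.10) and Lipa (lysosomal acid lipase, 0.13 ± 0.15) did not pass, and 3 of these 4 enzymes had all lung arrays above 0, the exception being Lipa with -0.04 on the second array.

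Of the proton pump subunits, Atp6v0d1, a subunit of the membrane sector, rose with ratios of 0.59, 0.40 and 0.38 (mean 0.46 ± 0.11, n = 3, adjusted p in limma 0.0051). Atp6v1h, a regulatory subunit of the cytosolic sector, stood at -0.06 ± 0.12 and did not pass.

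The MiT/TFE factors moved apart in lung. Mitf had ratios of 0.76, 0.74 and 1.00 (mean 0.83 ± 0.14, n = 3, a 1.78-fold ratio, adjusted p in limma 0.0026). Its second probe gave 0.24 ± 0.26 (adjusted p in limma 0.123), so the Mitf probes differed in whether they passed. Tfeb was lower in treated lung cells, with ratios of -0.38, -0.41 and -0.43 (mean -0.41 ± 0.02, n = 3, adjusted p in limma 0.0165), and with median centring it was at -0.19 and did not pass. Tfeb also did not pass without the second (adjusted p in limma 0.0698) or the third lung array (adjusted p in limma 0.0656). Tfe3 was at 0.17, -0.07 and 0.03 and did not pass (adjusted p in limma 0.707).

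Of the 14 lung increases, 8 passed in all 16 alternatives other than median centring, namely Lamp1, Cd63, Grn, Gusb, Gaa, Tpp1, Atp6v0d1 and Mitf. The 16 members that did not pass had means between -0.20 and 0.28. Of the 8 members with an E-box in the promoter window, 7 were higher in lung (all but Arsa), against 7 of 18 members with a window and no E-box. Across all genes tested, 21.5% of 1365 genes with the E-box and 21.8% of 11467 genes without it were higher in lung. These counts are a description of few genes and carry no test.

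Marker lists of cell types were also read in lung, where 20.0% of all genes tested were higher and 14.0% lower. Their calls went in directions that differed between the lists. Of the macrophage markers tested, 12 of 14 were higher in treated lung cells and 0 were lower, with a median log2 ratio of 1.96, and their summed level was 173948 to 256226 intensity units in treated lung against 47403 to 62838 in mock lung. Mertk, a receptor for apoptotic cells, was among them with ratios of 2.53, 2.16 and 2.14 (mean 2.28 ± 0.22, n = 3), as was Ms4a7 with a mean of 2.10 ± 0.27 (n = 3). Cd163 was too dim for testing. Of the alveolar macrophage markers 12 of 13 were higher, with summed levels of 151288 to 273442 in treated lung and 96867 to 121000 in mock lung.

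Markers of lung epithelium were higher for 7 of 10 genes, with summed levels of 60405 to 93239 in treated lung and 16278 to 30422 in mock lung. Endothelial markers were higher for 8 of 9, with summed levels of 26965 to 33330 in treated lung and 11941 to 16138 in mock lung. Neutrophil markers were higher for 7 of 12, with sums of 58379 to 139954 in treated lung and 20784 to 51935 in mock lung. All 9 B and plasma cell markers tested were lower, with sums of 2873 to 4739 in treated lung and 9125 to 12690 in mock lung. Of 10 T and NK cell markers 1 was higher and 4 lower, and of 4 haemoglobin and red cell markers 0 were higher and 2 lower. Among 8 markers of mast cells, basophils, osteoclasts and melanocytes 1 was higher and 1 lower, close to the shares over all genes. Of the monocyte and M-MDSC markers 3 of 13 were higher and 3 lower, also close to those shares. Their sums were 221677 to 244822 in treated lung and 171431 to 213161 in mock lung. The part of these cell types in the lysosomal result was not tested.

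In bone marrow M-MDSCs, 2 of the 30 members were higher in treated cells and 5 were lower with loess, where 7.25% of all genes tested were higher and 7.14% lower (14.4% in either direction). With median centring no member passed (lowest adjusted p in limma 0.277, with 4 at an unadjusted p under 0.05), and 4 of the 5 lower members turned to the other side of 0. No gene of the 22097 tested passed in that setting, and 3951 had an unadjusted p under 0.05. The median member was at -0.14 with loess, against 0.02 for all genes, and at 0.39 with median centring, against 0.20 for all genes. The members' median thus lay 0.16 below that of all genes under loess and 0.19 above it under median centring, so no direction of the group in bone marrow held under both. With loess 21 of 30 means were below 0, and with median centring 1 was, that of Man2b1. Leaving out any 1 of the bone marrow arrays brought the lower members to 2. The higher members came to 0 without the third lung or the second bone marrow array, and to 1 without the second lung, the first bone marrow or the third bone marrow array.

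**Figure D2:**
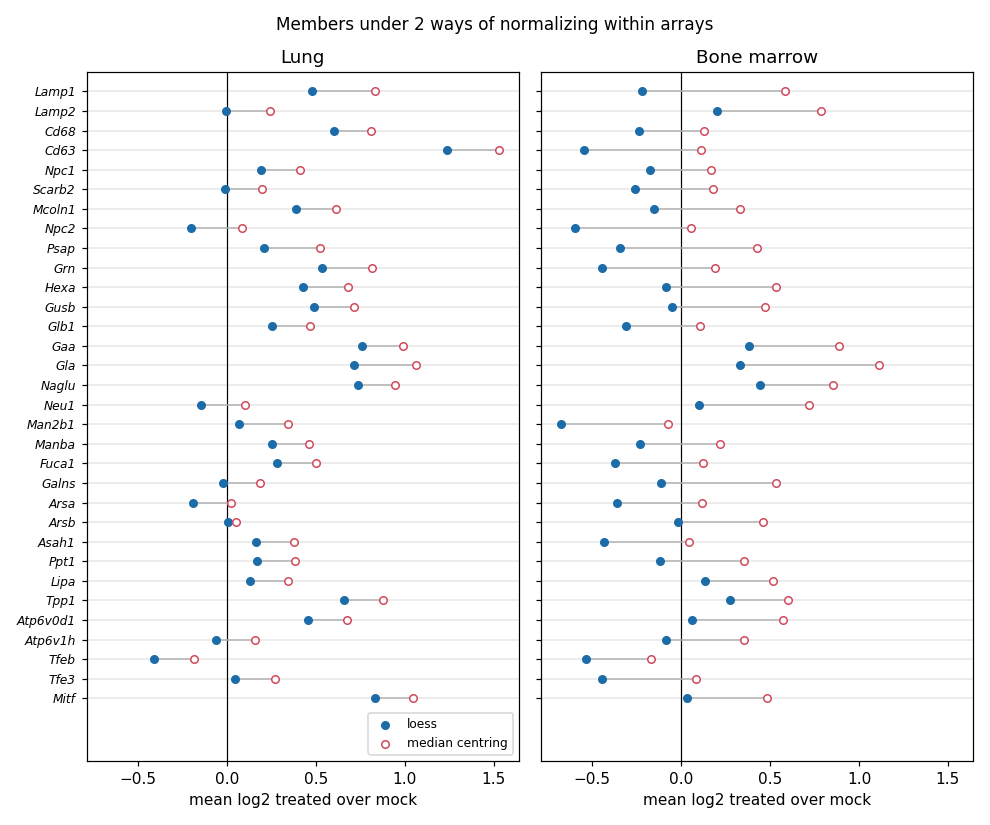
Mean log2 ratio of treated over mock (x axis) of each gene in lung (left) and bone marrow (right) after loess (filled) and after median centring (open). In lung the 14 members that passed with loess lie above 0 under both, while in bone marrow 29 of the 30 members found by name lie above 0 under median centring and 9 under loess.

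The 5 decreases in bone marrow with loess were in cofactors, glycosidases and a ceramidase. Npc2 had ratios of -0.59, -0.40 and -0.81 (mean -0.60 ± 0.20, n = 3, adjusted p in limma 0.0088), and was at 0.0575 with median centring. Its arrays were all below 0 under loess, and it passed in every alternative run except median centring. Grn had ratios of -0.32, -0.36 and -0.66 (mean -0.45 ± 0.19, adjusted p in limma 0.0180), and was at 0.19 with median centring. Without the second or the third bone marrow array Grn did not pass (-0.49 and -0.34, adjusted p in limma 0.0672 and 0.0723).

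Man2b1 had ratios of -0.57, -0.41 and -1.06 in bone marrow (mean -0.68 ± 0.34, n = 3, adjusted p in limma 0.0173), and was still below 0 with median centring at -0.07 without passing. The third array was the low one, and without it Man2b1 was at -0.49 (adjusted p in limma 0.0597), while without the first it was at -0.73 (adjusted p in limma 0.0567). Glb1 had ratios of -0.24, -0.42 and -0.27 (mean -0.31 ± 0.10, adjusted p in limma 0.0297), and was at 0.10 with median centring. It did not pass without any 1 of the bone marrow arrays (-0.34, -0.25 and -0.33, adjusted p in limma 0.0679, 0.165 and 0.0849). Asah1 had ratios of -0.69, -0.28 and -0.33 (mean -0.43 ± 0.22, adjusted p in limma 0.0235), and was at 0.0446 with median centring. It too did not pass without any 1 of the bone marrow arrays (-0.31, -0.51 and -0.49, adjusted p in limma 0.0731, 0.0601 and 0.0624).

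The 2 increases in bone marrow were the glycosidases Gaa and Naglu, which also rose in lung. Gaa had ratios of 0.29, 0.29 and 0.57 (mean 0.38 ± 0.16, n = 3, adjusted p in limma 0.0373). Naglu had ratios of 0.72, 0.41 and 0.20 (mean 0.44 ± 0.26, n = 3, adjusted p in limma 0.0392). All bone marrow arrays were above 0 for both, also on average with median centring. The Gaa call did not hold without any 1 of the bone marrow arrays (0.43, 0.43 and 0.29, adjusted p in limma 0.0783, 0.114 and 0.154) or without the third lung array (adjusted p in limma 0.0527). It also did not hold with the mean over probes (0.32, adjusted p in limma 0.0569). The upstream Gaa probe gave a bone marrow mean of 0.27 ± 0.25 (adjusted p in limma 0.112). The Naglu call did not hold without the first or second bone marrow array (0.30 and 0.46, adjusted p in limma 0.137 and 0.154) or without the second or the third lung array (adjusted p in limma 0.061 and 0.0526), which enter through the shared estimate of the spread.

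Tfeb and Tfe3 were lower in treated bone marrow cells with loess. Tfeb had ratios of -0.35, -0.41 and -0.86 (mean -0.54 ± 0.28, n = 3, adjusted p in limma 0.0155), and was at -0.17 with median centring. Without the second bone marrow array Tfeb did not pass (adjusted p in limma 0.0537). Tfe3 had ratios of -0.37, -0.34 and -0.63 (mean -0.45 ± 0.16, n = 3, adjusted p in limma 0.0143), and was at 0.0811 with median centring. Without the third bone marrow array Tfe3 did not pass (adjusted p in limma 0.0595). Its second probe gave a bone marrow mean of -0.14 ± 0.20 (adjusted p in limma 0.305). With the mean over probes Tfe3 was at -0.29 and did not pass (adjusted p in limma 0.0531). Mitf had ratios of 0.21, 0.28 and -0.40 and did not pass.

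The other 23 members had bone marrow means between -0.54 and 0.33. The lowest was Cd63 with -0.72, -0.85 and -0.06, which did not pass but did when the third bone marrow array, the one near 0, was left out (adjusted p in limma 0.0400), with array weights (0.0392) and with the replicate number as a block (0.0144). Fuca1 had ratios of -0.42, -0.29 and -0.42 and missed the threshold (adjusted p in limma 0.0515). Of the macrophage markers tested in bone marrow, 0 of 14 were higher and 1 lower, and their summed level was 8962 to 14832 in treated cells against 17515 to 20594 in mock cells. Csf1r, a receptor of monocytes and macrophages, was lower in treated bone marrow cells (mean -1.14 ± 0.29, n = 3, adjusted p in limma 0.00291) and higher in treated lung cells (mean 0.76 ± 0.23, n = 3, adjusted p in limma 0.00309). Of the monocyte and M-MDSC markers 2 of 13 were higher and 3 lower in bone marrow. Both marker counts are read against all genes tested, of which 7.25% were higher and 7.14% lower there.

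The response differed between tissues for 11 of the 30 members, each with a more positive log2 ratio in lung than in bone marrow, where 9.78% of all genes tested had a more positive and 5.46% a less positive ratio in lung (15.2% in either direction). The median member had a lung minus bone marrow difference of 0.40, against 0.00 for all genes. A dye effect of equal size on both slides drops out of this difference, while a slide effect does not. None of the 30 was less positive in lung in limma, also at an unadjusted p under 0.05, where 20 were more positive. Of all 22097 genes tested, 7269 had an unadjusted p under 0.05 for this difference, in either direction. With median centring no member passed (lowest adjusted p in limma 0.511, 1 at an unadjusted p under 0.05), and the median difference was 0.13, against -0.06 for all genes. Few genes of any kind passed in that setting, with 28 of 22097 more positive and 5 less positive in lung, and 2153 at an unadjusted p under 0.05.

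Cd63 differed most, with lung arrays between 0.96 and 1.61 and bone marrow arrays between -0.85 and -0.06, a difference of 1.78 (95% interval 1.22 to 2.34, adjusted p in limma 0.0046). Grn, higher in treated lung cells and lower in treated marrow cells with loess, differed by 0.98 (0.70 to 1.27, adjusted p in limma 0.0034). Lamp1 differed by 0.70 (0.44 to 0.95, adjusted p in limma 0.0075) and Glb1 by 0.56 (0.33 to 0.80, adjusted p in limma 0.0116). The arrays of the tissues did not overlap for any of these 4 genes, which is no further support for genes picked by a test on the same arrays. These were the 4 that passed in all 15 alternatives other than median centring.

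The other 7 were Cd68 (difference 0.84, adjusted p in limma 0.0274), Mitf (0.80, 0.0274), Man2b1 (0.75, 0.0348), Fuca1 (0.66, 0.0253), Asah1 (0.60, 0.0226), Mcoln1 (0.54, 0.0230) and Npc1 (0.37, 0.0459). Each of these lost the call when some 1 array was left out. Npc1 lost it for any of the 6 arrays (adjusted p in limma up to 0.126) and Man2b1 for any but the second bone marrow array (up to 0.0728). Fuca1 lost it for any 1 of the bone marrow arrays (adjusted p in limma up to 0.0762), Mcoln1 for the first or second of them (up to 0.0856), and Asah1 for the second lung array (0.0545). Cd68 lost it for the first or second lung or the second bone marrow array (adjusted p in limma up to 0.0673), and Mitf for the second lung, the third lung or the first bone marrow array (up to 0.0681). With the mean over probes Mitf (0.55) and Fuca1 (0.28) did not pass (adjusted p in limma 0.0530 and 0.117). Their second probes gave differences of 0.30 for Mitf and, from a dim probe, -0.10 for Fuca1 (adjusted p in limma 0.216 and 0.462). The count of 11 came to 6 without the first bone marrow array, to 7 without the second lung or the second bone marrow array, and to 8 or 9 without any other. Tfe3 differed by 0.49 (adjusted p in limma 0.0277) and lost the call without any array but the second lung array (up to 0.0635). It also lost the call with the mean over probes (0.40, adjusted p in limma 0.0540). The increases of Gaa and Naglu in lung were not shown to differ from those in bone marrow (differences 0.38 and 0.29, 95% intervals 0.07 to 0.69 and -0.07 to 0.66, adjusted p in limma 0.0931 and 0.234).

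**Figure D3:**
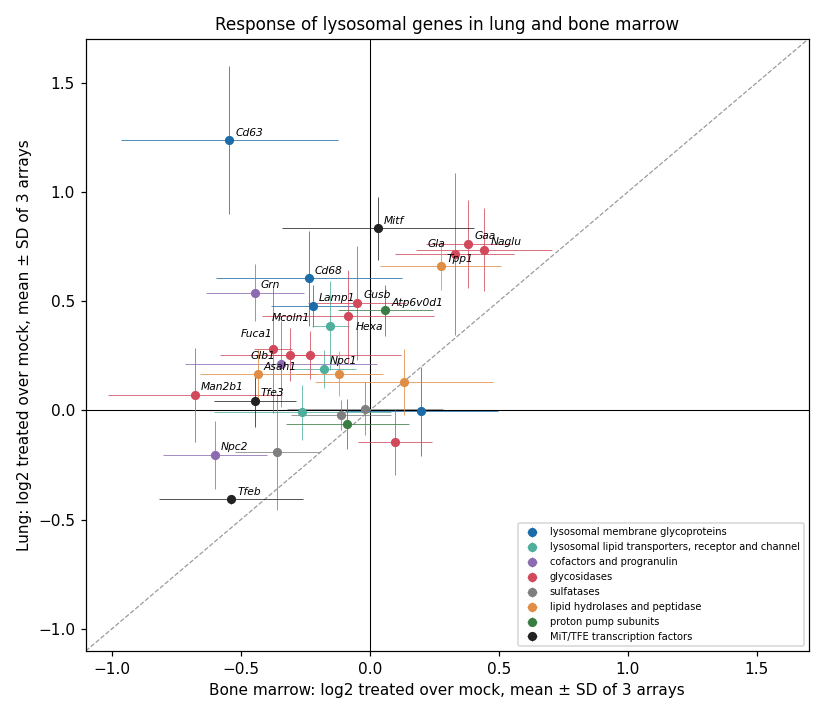
Mean log2 ratio of treated over mock in lung (y axis) against bone marrow (x axis) after loess, with bars of 1 SD over 3 arrays, coloured by role and named where a gene passed in any of these comparisons. Cd63 lies at 1.24 in lung and -0.54 in bone marrow, and 27 of the 30 members lie above the dashed line of equal response, 22 of 30 with median centring.

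In mock cells the members showed no common direction between tissues. Of the 30, 9 were higher and 11 lower in lung than in bone marrow, where 29.6% of all genes tested were higher and 36.3% lower (66.0% in either direction), and the median difference was -0.04 for members and for all genes. These are log2 Cy3 intensities after loess within arrays and equal mean intensities between arrays, so they also hold any slide effect. Cell type markers differed too, with 12 of 14 macrophage markers higher and 0 lower in mock lung, and 0 of 12 neutrophil markers higher and 9 lower. Neutrophil sums were 20784 to 51935 in mock lung and 474733 to 495096 in mock bone marrow. Of 13 monocyte and M-MDSC markers 5 were higher and 5 lower. The part of cell types in these differences was not tested. Levels of different genes are not compared, since each has its own probe. With median centring in place of loess, 3 members were higher and 5 lower, where 17.3% of all genes tested were higher and 19.4% lower. The 12 calls that this ended were those of Mcoln1, Glb1, Fuca1, Arsa, Tpp1 and Mitf among the higher and of Lamp1, Cd63, Npc2, Grn, Hexa and Neu1 among the lower, all with the same sign.

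Lipa, which frees cholesterol and fatty acids from lipoproteins taken up by the cell, was the member most increased in mock lung. Its log2 level was 10.66, 10.85 and 10.79 in mock lung, against 9.24, 8.98 and 9.07 in mock bone marrow (difference 1.67, adjusted p in limma 2.94e-06). Cd68 was at 9.96, 10.14 and 10.17 in mock lung, against 8.97, 9.05 and 9.01 in mock bone marrow (difference 1.08, adjusted p in limma 1.22e-05). The tissues did not overlap for either gene, which is no further support for genes picked by a test on the same arrays. The share of all genes without overlap is not given here. The response of Lipa to treatment was 0.13 ± 0.15 in lung and 0.13 ± 0.35 in bone marrow, with a 95% interval of the difference from -0.41 to 0.41. The other 7 higher members were Mcoln1, Arsa, Gaa, Tpp1, Mitf, Glb1 and Fuca1, by 0.26 to 0.59. The Glb1 call was lost without the second or the third lung array (adjusted p in limma 0.0616 and 0.0626), and the Fuca1 call without the second lung, the third lung or the second bone marrow array (adjusted p in limma 0.0939, 0.0856 and 0.0622).

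Psap was lower in mock lung, at 13.92, 14.04 and 13.91, against 15.05, 15.40 and 15.34 in mock bone marrow (difference -1.31, adjusted p in limma 1.76e-05). Ppt1 was at 9.17, 9.29 and 9.27 in mock lung, against 10.87, 10.65 and 10.51 in mock bone marrow (difference -1.43, adjusted p in limma 1.03e-05). Cd63, Hexa, Atp6v1h, Grn, Neu1, Lamp1 and Npc2 were also lower, with differences of -0.78 to -0.49. Of the 14 members higher in treated than in mock lung cells, Cd63, Grn, Lamp1 and Hexa were thus lower in mock lung than in mock bone marrow. Cd68, Mitf, Gaa (by the probe used), Tpp1, Mcoln1 and Glb1 were higher there, and the rest did not pass. Both comparisons use the same mock lung channels, so they are not independent.

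The lowest differences came from 2 sulfatases and carry a limit of their probes. Galns was at 10.10, 10.20 and 10.17 in mock lung, against 13.71, 13.68 and 13.27 in mock bone marrow (difference -3.40), from the probe with repeated letters. Arsb was at 6.79, 6.80 and 6.92 in mock lung, against 11.16, 10.70 and 10.65 in mock bone marrow (difference -4.00) by its upstream probe (mm9, chr13:94632153-94632212). Its downstream probe (mm9, chr13:94712040-94712099) gave -0.51.

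Probes of 1 gene disagreed in mock cells for Gaa, Asah1, Lamp2 and Tfe3 too. Gaa was 0.52 higher in mock lung by its downstream probe and -1.20 by its upstream probe, and its mean over both probes was -0.34 (adjusted p in limma 0.0031), so Gaa has no settled direction between tissues. Asah1 was at -0.01 by the probe used and -1.01 by the other, Lamp2 at -0.10 and -0.43, and Tfe3 at 0.04 and 0.67. None of these passed by the probe used. With the mean over probes Asah1 (-0.51), Lamp2 (-0.27) and Tfe3 (0.36) passed (adjusted p in limma 0.0033, 0.0312 and 0.0031). Across 1971 transcripts of the series with a pair of probes at least 1000 bases apart, the upstream probe was the lower one in lung over bone marrow for 68.3%, by a median of -0.35. For treated over mock the same median was -0.09 in lung and 0.01 in bone marrow.

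**Figure D4:**
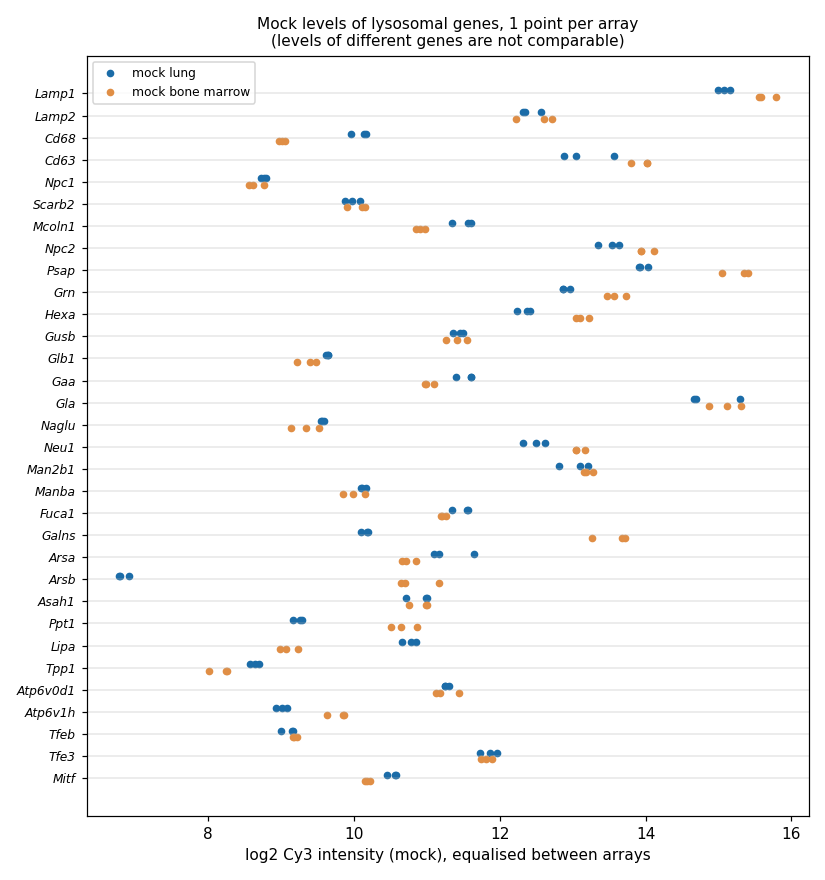
Log2 Cy3 intensity (x axis) of each gene on the 3 mock lung and the 3 mock bone marrow channels, 1 point per array. Lipa and Cd68 are higher and Psap, Ppt1, Galns and Arsb lower in mock lung, and Arsb and Galns carry the probe limits given in the text.

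The rest of the lysosomal genes were read from 7 further lists of 123 tested genes. In lung 45 were higher and 13 lower in treated cells, where 20.0% of all genes tested were higher and 14.0% lower. The median of the lists was 0.18, against 0.01 for all genes. In bone marrow 11 were higher and 27 lower with loess, where 7.25% of all genes tested were higher and 7.14% lower. The median there was -0.12, against 0.02 for all genes. With median centring 14 of the 27 turned above 0 and the median was 0.30. None of the 123 passed in limma in that setting (25 had an unadjusted p under 0.05), nor did any other gene tested. With median centring 8 of the 45 lung increases passed and the 13 lung decreases stayed below 0 without passing. The lung minus bone marrow difference was positive and passed for 33 and negative for 2, against 9.78% and 5.46% of all genes tested, with a median of 0.32. The counts of each list below are to be read against these shares over all genes.

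Of 22 other hydrolases and cofactors, 10 rose and 2 fell in lung. Pla2g15, a lysosomal phospholipase, had lung ratios of 1.36, 0.80 and 0.98 (mean 1.05 ± 0.29, n = 3) and marrow ratios of -0.27, -0.42 and -0.52 with loess, against a marrow mean of 0.02 with median centring. Sgsh, a sulfatase of heparan sulfate breakdown, rose in lung (0.91 ± 0.13) and in bone marrow (0.50 ± 0.15), and Acp2, a lysosomal acid phosphatase, rose in lung (0.73 ± 0.10). Of these 22 genes 1 was higher and 5 lower in bone marrow with loess, among them Gm2a, the cofactor of beta-hexosaminidase A (-0.69 ± 0.23), and Ppt2, a thioesterase (-0.62 ± 0.08), which also fell in lung (-0.59 ± 0.12).

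Cathepsins and legumain, the lysosomal proteases, had 7 of 15 members higher and 1 lower in lung. Lgmn, an asparaginyl endopeptidase, had lung ratios of 1.25, 1.17 and 1.52 (mean 1.31 ± 0.19, n = 3). Ctsf (1.05 ± 0.36) and Ctsb (0.73 ± 0.09) were among the rest. In bone marrow 2 were higher and 2 lower with loess, namely Ctsa (-0.75 ± 0.26), a carboxypeptidase that protects Neu1 and Glb1, and Ctsh (-0.59 ± 0.18, at 0.16 with median centring) on the lower side. Ctsc, which activates granule serine proteases, rose in bone marrow (0.59 ± 0.27) and in lung (0.62 ± 0.27).

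Other proton pump subunits included 7 of 15 higher and 1 lower in lung. Atp6v0d2, an isoform of Atp6v0d1 known from osteoclasts and macrophages, had lung ratios of 1.81, 0.89 and 1.13 (mean 1.28 ± 0.48, n = 3). Atp6v1c1 (0.68 ± 0.17) and the accessory subunit Atp6ap2 (0.63 ± 0.08) were higher, and Atp6v0a2 was lower (-0.45 ± 0.05). In bone marrow 3 were higher and 2 lower with loess, including Atp6v1g1 (0.44 ± 0.21) among the higher and Atp6v0b (-0.50 ± 0.04) and Atp6v0a2 (-0.28 ± 0.03) as the lower ones, at 0.04 and 0.14 with median centring.

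Of 19 other membrane proteins, 7 were higher and 2 lower in lung. In bone marrow 2 were higher and 1 lower with loess, close to the shares over all genes. Laptm4b (0.78 ± 0.18), the sialomucin Cd164 (0.76 ± 0.22) and the sialic acid exporter Slc17a5 (0.57 ± 0.20) were higher in treated lung cells. In bone marrow Laptm4b (0.38 ± 0.16) and Cd164 (0.39 ± 0.18) were higher, and Laptm4a was lower (-0.69 ± 0.20).

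Sorting of enzymes to lysosomes had 4 of 18 genes higher and 3 lower in lung, close to the shares over all genes. Ap1b1, a subunit of the AP-1 adaptor (1.12 ± 0.29), and Igf2r, a mannose 6-phosphate receptor (0.80 ± 0.25), were higher, and Bloc1s1 (-0.61 ± 0.11) was lower. In bone marrow 1 was higher, Gnptab (0.53 ± 0.13), which helps to make the mannose 6-phosphate tag, and 3 were lower with loess, among them Bloc1s1 (-0.57 ± 0.14) and Vps18 (-0.27 ± 0.02), at 0.04 and 0.17 with median centring.

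Nutrient sensing at the lysosome had 7 of 17 genes higher and 2 lower in lung. The lower ones were the Ragulator subunits Lamtor4 (-0.36 ± 0.07) and Lamtor5 (-0.32 ± 0.03), and Rheb, the activator of mTORC1, was higher (0.28 ± 0.03). In bone marrow 1 was higher and 4 lower with loess, including Flcn (-0.56 ± 0.16), a factor that controls TFEB and TFE3 through the Rag GTPases, Lamtor1 (-0.53 ± 0.09, at 0.04 with median centring) and Rptor (-0.29 ± 0.04, at 0.09 with median centring).

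Autophagy genes had 3 of 17 higher and 2 lower in lung, close to the shares over all genes. In bone marrow 1 was higher and 10 lower with loess, the list's median there being -0.28 with loess and 0.17 with median centring. Sqstm1, an autophagy receptor, was higher in lung (0.98 ± 0.15), as was Gabarapl1 (0.56 ± 0.19), which was the increase in bone marrow as well (0.50 ± 0.11). Atg9a was lower in lung (-0.47 ± 0.28). Uvrag (-0.59 ± 0.17), the kinase Ulk1 (-0.53 ± 0.14) and Wipi1 (-0.42 ± 0.09) were among the 10 lower genes in bone marrow.

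**Figure D5:**
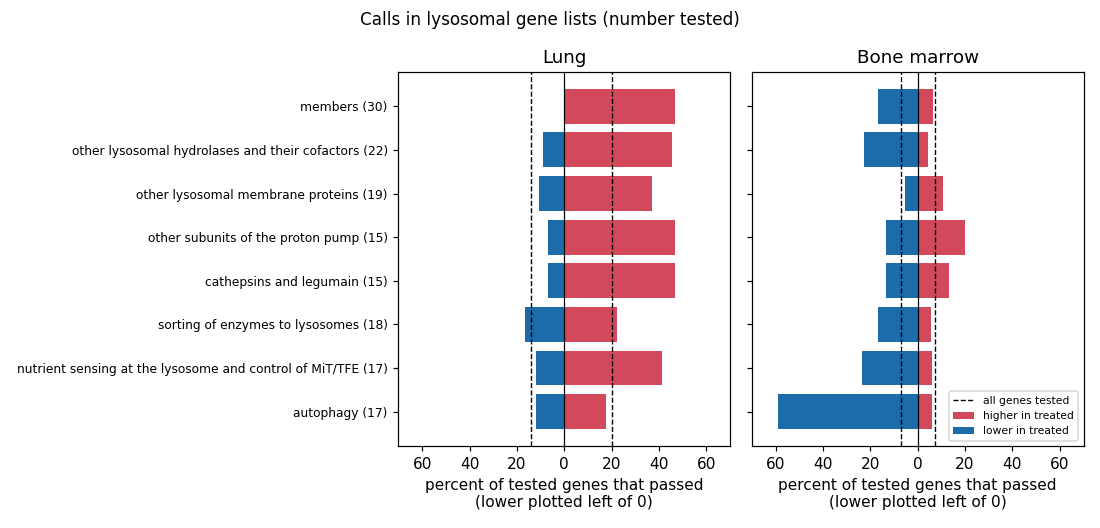
Percent of the tested genes of each lysosomal list that passed in limma as higher (right of 0) or lower (left of 0) in treated cells of lung (left) and bone marrow (right) with loess, and dashed lines for all genes tested. In lung 14 of 30 members were higher and 0 lower, and in bone marrow 10 of 17 autophagy genes were lower. With median centring none of the 22097 genes tested passed in bone marrow, the 123 of the further lists included.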

How the data were processed

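RNA of sorted M-MDSCs was measured on 6 dual-colour arrays. Spot intensity values in the deposited scanner files come from Feature Extraction 10.7.3.1, and their probe positions are on mm9, per the file headers. The deposited matrices hold log2 ratios that the authors made with limma, per the submitters' processing notes. On every array they equalled Cy5 over Cy3 from normexp (offset 50) on median signals and loess across 43173 spots. Here mean signals were used with normexp (offset 50) and loess in limma 3.58.1 (R 4.3.3), control spots at weight 0, outlier spots left out. A probe was kept when well above background on at least 2 arrays of a tissue in 1 channel, the brightest probe stood for a gene, and 1 mean per tissue was fitted with empirical Bayes moderation over all 6 arrays. P values are two-sided and adjusted over 22097 genes (Benjamini-Hochberg, threshold 0.05). Mock levels are log2 Cy3 after equalising mean intensity between arrays (Aquantile).

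Promoter windows and gene neighbours came from RefSeq (GRCm38.p6), and protein sequences were not used here. The members and lists were chosen with earlier results of these data known. All members are named, and from each further lysosomal list the 3 genes with the smallest p in each tissue. Markers were named as defining genes or for the smallest p. Alternatives changed background correction, normalization, filter, probe choice, fit and arrays, and the count without Gla and Galns was added after seeing the data.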

Additional observations from a re-analysis of the deposited data

Results flagged for a closer look

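For 12 of the 32 genes the response to treatment differed between tissues in limma after loess (adjusted p under 0.05). The test was of the difference itself, lung minus bone marrow, and 15.2% of all genes tested passed it in either direction. The log2 differences were 1.78 for Cd63, 0.98 for Grn, 0.84 for Cd68, 0.80 for Mitf, 0.75 for Man2b1, 0.70 for Lamp1, 0.66 for Fuca1, 0.60 for Asah1, 0.56 for Glb1, 0.54 for Mcoln1, 0.49 for Tfe3 and 0.37 for Npc1. All 12 were more positive in lung. The lung and bone marrow arrays did not overlap for any of the 12. They were picked by a test on these same arrays, so the lack of overlap is no further support. With median centring none of the 12 passed, in a setting where 28 of 22097 genes were more positive and 5 less positive in lung. With the mean over probes Fuca1, Mitf and Tfe3 did not pass. The part of macrophage and other marker levels in these differences was not tested.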

How the results depend on the processing

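With 3 arrays per tissue, no dye exchange and 1 slide per tissue, the normalization within arrays decided most. With median centring the count of higher members was 0 in lung, 0 in bone marrow, 0 in the tissue difference and 3 in mock lung over mock bone marrow, and the count of lower members was 0 in bone marrow and 5 in mock cells. It turned Npc2 to 0.0575, Grn to 0.19, Glb1 to 0.10, Asah1 to 0.0446 and Tfe3 to 0.0811 in bone marrow, and the mean over probes turned Gaa to -0.34 in mock cells. Processed signals gave 1 higher member in bone marrow and 5 in the tissue difference. Scaling between arrays gave 1 and 6, and the mean over probes gave 1 higher member in bone marrow. Array weights gave 8 lower members in bone marrow and 1 in lung. Leaving out 1 array at a time gave 11 to 15 higher members in lung, 0 to 3 higher and 2 to 7 lower in bone marrow, 6 to 9 in the tissue difference, and 7 to 9 higher and 11 to 12 lower in mock cells. With the replicate number as a block, 14 members were higher in lung, 2 higher and 6 lower in bone marrow, 9 in the tissue difference, and 8 higher and 11 lower in mock cells. Whether the numbers pair the samples across tissues was not settled. Deviations of same-numbered arrays correlated at 0.00, 0.12 and 0.05, and those of the other lung and bone marrow arrays at -0.12 to 0.04. With 3 arrays per tissue these values cannot decide it. The cause of these changes was not tested.

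Over all genes tested, median centring gave 891 higher and 73 lower in lung and 0 in bone marrow, where 3951 had an unadjusted p under 0.05. Over single member values under each alternative, a called value changed sign 6 times, a call was lost with the same sign 142 times and gained 35 times, and 1929 values kept their side of the threshold, among them values that crossed 0 without a call.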
